A study of Homo sapiens with 6 samples.

Results

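JAG1, NOTCH1, NOTCH2 and RBPJ are the 4 genes described here, a ligand, a pair of receptors and the nuclear effector of the Notch pathway, and all 4 were found by name among the 14821 genes of the count table. They were picked with the ERG against vector differences of these libraries already known, so their own values in that contrast are a description and support nothing. Calls of the 4 genes by the models are given too, and nothing is read from those. F36P is a human cell line, long established, from acute erythroid leukaemia. Bulk messenger RNA was sequenced in 3 libraries of F36P cells transduced with the retroviral plasmid MSCV-PIG-AM-ERG (ERG overexpression) and in 3 libraries of F36P cells transduced with the empty plasmid MSCV-PIG (vector, genotype label WT). All 6 cultures had been selected with puromycin at 1 µg/ml for 4 days, so both groups carry the retroviral backbone and its resistance gene. Replicates are labelled biological, but whether each came from its own transduction is not stated, so the tests weigh differences only against the spread seen here, part of which may be technical. The question stated for the series is how the ETS family transcription factor ERG inhibits erythroid differentiation.

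Notch signalling passes between touching cells. A ligand of the Jagged or Delta-like family on one cell binds a Notch receptor on its neighbour, and the receptor is cut first by an ADAM protease and then by gamma-secretase. The freed intracellular part enters the nucleus, joins the DNA-binding protein RBPJ and a Mastermind-like coactivator, and turns on targets such as the HES and HEY repressors; without it RBPJ recruits corepressors. In blood formation the pathway is best known for its part in T cell fate and in the generation of haematopoietic stem cells.

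The windows just upstream of the transcription starts of the 4 genes are shown first because ERG binds the ETS core GGAA and RBPJ binds TGGGAA, and a reader can see where these letters fall. They are the 250 bases before one RefSeq start site of each gene (GRCh38.p14, gene strand, 5′ to 3′). Capitals mark GGAA and TGGGAA on either strand, which read TTCC and TTCCCA on the other one, and every TGGGAA also holds a GGAA. RBPJ has several start sites, and the one with the most GENCODE coding starts within 50 bases is shown.
JAG1: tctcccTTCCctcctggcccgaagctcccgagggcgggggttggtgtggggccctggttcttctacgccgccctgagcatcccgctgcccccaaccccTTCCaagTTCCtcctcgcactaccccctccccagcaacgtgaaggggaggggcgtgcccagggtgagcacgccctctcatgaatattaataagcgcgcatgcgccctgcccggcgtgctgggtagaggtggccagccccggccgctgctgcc
NOTCH1: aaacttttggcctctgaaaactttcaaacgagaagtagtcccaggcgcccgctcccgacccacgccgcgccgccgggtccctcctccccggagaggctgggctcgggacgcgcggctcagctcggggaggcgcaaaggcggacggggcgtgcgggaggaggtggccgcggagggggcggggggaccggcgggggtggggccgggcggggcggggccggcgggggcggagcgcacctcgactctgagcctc
NOTCH2: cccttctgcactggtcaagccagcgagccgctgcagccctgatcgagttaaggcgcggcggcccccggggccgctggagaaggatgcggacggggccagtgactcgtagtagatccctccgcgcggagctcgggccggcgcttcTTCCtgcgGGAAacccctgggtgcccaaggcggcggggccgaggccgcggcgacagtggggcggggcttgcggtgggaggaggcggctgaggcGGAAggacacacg
RBPJ: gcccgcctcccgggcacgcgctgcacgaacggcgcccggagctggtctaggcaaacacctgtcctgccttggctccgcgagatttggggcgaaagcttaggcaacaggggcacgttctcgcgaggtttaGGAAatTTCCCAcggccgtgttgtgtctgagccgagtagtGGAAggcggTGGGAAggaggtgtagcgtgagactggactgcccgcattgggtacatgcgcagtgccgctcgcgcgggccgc
The JAG1 window lies at chr20:10674000-10674249 on the minus strand, is 68.4% G or C and has 3 GGAA cores. The NOTCH1 window lies at chr9:136546049-136546298 on the minus strand, is 76% G or C and has 0 GGAA cores; its RefSeq start has 0 GENCODE coding starts within 50 bases, so another start would give other letters. The NOTCH2 window, at chr1:120069663-120069912 on the minus strand, has 3 GGAA cores, and the RBPJ window, at chr4:26319496-26319745 on the plus strand, has 4. TGGGAA occurred 2 times in the RBPJ window shown and 0 times in the other 3 windows shown. In the windows of the other RBPJ start sites it occurred 0 times, so this too depends on the start chosen. Of 35116 windows of the same length over all genes, 92.7% held GGAA and 20.8% held TGGGAA, so these matches are a description of the letters and not of binding.

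The libraries held 10257141 to 14803031 counts. ERG was at 97.4 to 104 CPM (counts scaled to library size, with TMM factors) in the ERG libraries and at 14.6 to 28.1 CPM in the vector libraries. All 12 erythroid markers listed were measured and 4 of them fell, against 0.732% of all tested genes (edgeR adjusted p under 0.05). The sum of the 12 was 3636 to 6665 CPM with ERG and 11015 to 18884 CPM with vector. In 2 respects the libraries stood apart from their labels. ERG replicates 1 and 2 differed by a chi-square of 2.20 per degree of freedom, against 21.6 to 86.9 for every other pair. Across genes, ERG replicates 1 and 2 and vector replicate 1 correlated more closely with each other (library set A) than with ERG replicate 3 and vector replicates 2 and 3 (set B). The 4 genes are therefore also given within the sets, which are not groups of the study.

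JAG1 and NOTCH1 were higher in every ERG library than in any vector library, whereas the ranges of NOTCH2 and RBPJ overlapped. The fold changes were 2.52 for JAG1, 2.71 for NOTCH1, 1.10 for NOTCH2 and 0.99 for RBPJ. The model over all 14203 tested genes (edgeR quasi-likelihood, adjusted p under 0.05) called 1 of the 4, JAG1, where it called 2.20% of all genes; the groups did not overlap for 2 of the 4, against 21.9% of all genes (12.3% with all ERG libraries above, as here, and 9.54% with all below). limma-voom (1.89% of all genes called) also called JAG1 alone, while JAG1 and NOTCH1 were called by DESeq2 (7.08%), with a term for the library sets (13.2%) and with the replicate number as a block (6.37%). None of the 4 was called with ERG replicates 1 and 2 summed, or without ERG replicate 1, ERG replicate 2, vector replicate 2 or vector replicate 3. Nothing is read from these counts, because the genes were chosen with this contrast known. In bulk RNA, fewer cells expressing a gene and less of its RNA per cell cannot be told apart.

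**Figure D1:**
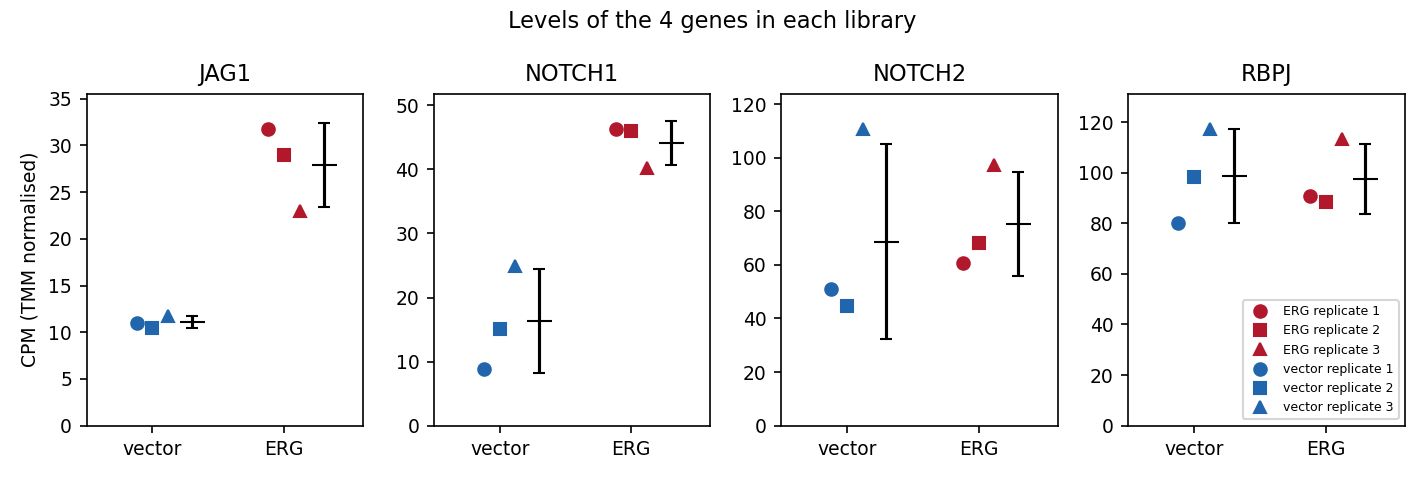
CPM of JAG1, NOTCH1, NOTCH2 and RBPJ (linear vertical axes from 0, one per gene) in the 3 vector (blue) and 3 ERG (red) libraries; symbols give the replicate number, and the black bars the mean and SD of each group. JAG1 lies at 22.9 to 31.8 CPM with ERG against 10.4 to 11.7 with vector, while NOTCH2 and RBPJ overlap.

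JAG1 encodes the ligand Jagged-1 and spans bases 10637684 to 10673999 of chromosome 20 (minus strand; hg38, GENCODE release 29). It was at 31.8, 28.9 and 22.9 CPM in ERG replicates 1, 2 and 3 and at 11.0, 10.4 and 11.7 CPM in vector replicates 1, 2 and 3. The vector libraries were nearly alike, and the lowest ERG library was still far above them. The means were 27.9 ± 4.49 against 11.1 ± 0.655 CPM (SD, n = 3 each), a log2 fold change of 1.33 (SE 0.18). Within set A the difference of log2 CPM was 1.45, and within set B it was 1.04. These values rest on 338 to 422 counts per ERG library and 120 to 137 per vector library. The start of JAG1 overlaps AL050403.2, an antisense RNA gene of GENCODE, and reads of the pair cannot be told apart without strand, which the sources used here do not give.

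NOTCH1, the receptor best known from T cell leukaemia, lies on chromosome 9 from 136494433 to 136545786 on the minus strand. It was at 46.3, 46.0 and 40.2 CPM in ERG replicates 1 to 3 and at 8.89, 15.2 and 24.9 CPM in vector replicates 1 to 3. The ERG libraries were close together, and the vector libraries spread widely, with replicate 1 lowest and replicate 3 highest. The means were 44.2 ± 3.44 against 16.3 ± 8.09 CPM, a log2 fold change of 1.44 (SE 0.34). The size depended on the vector library: the log2 difference was 2.36 within set A, which holds vector replicate 1, and 1.04 within set B. It was 1.88 without vector replicate 3 and 1.14 without vector replicate 1. An annotated antisense gene, AL592301.1, lies inside NOTCH1, with the same limit.

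NOTCH2, the second receptor, lies on chromosome 1 from 119911553 to 120069626 on the minus strand. It was at 60.6, 68.2 and 97.2 CPM with ERG and 50.9, 44.6 and 110.7 CPM with vector. The library with the highest level was vector replicate 3 and the next ERG replicate 3, so the spread within each group was larger than the difference between them. The means were 75.3 ± 19.3 against 68.7 ± 36.5 CPM, with a log2 difference of 0.14 (SE 0.36, 95% interval -0.70 to 0.98). It was 0.66 without vector replicate 3 and -0.10 without vector replicate 2, so neither a sign nor its absence can be given at this spread. Within the library sets the log2 difference was positive in both, 0.34 in set A and 0.47 in set B.

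The count of NOTCH2 is uncertain, because the NOTCH2NL genes are partial copies of its first exons. Of all 50-base stretches of the NOTCH2 transcripts, 23.4% also occur in transcripts of other genes, chiefly NBPF19 and NOTCH2NLA, while 0% do for JAG1 and NOTCH1 and 0.803% for RBPJ, all of these in RBPJ pseudogenes. NOTCH2NLA, NOTCH2NLB and NOTCH2NLC together were at 37.9, 37.8 and 37.7 CPM with ERG and 25.5, 20.6 and 25.8 CPM with vector. The sum was thus higher in each ERG library than in any vector library, which NOTCH2 was not. Singly, the log2 differences were 0.69 for NOTCH2NLA, 0.65 for NOTCH2NLB and 0.61 for NOTCH2NLC, and none passed (edgeR adjusted p = 0.137, 0.137 and 0.278).

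RBPJ, the DNA-binding factor through which all Notch receptors act, lies on chromosome 4 from 26163455 to 26435131 on the plus strand. It was at 90.8, 88.5 and 113.4 CPM with ERG and 80.1, 98.3 and 117.2 CPM with vector. Both groups covered much the same range, with the highest level of each in replicate 3. The means were 97.6 ± 13.8 against 98.5 ± 18.6 CPM, with a log2 difference of -0.01 (SE 0.18, 95% interval -0.43 to 0.40). Within the library sets it was 0.16 in set A and 0.08 in set B. RBPJL, a paralogue, was near the detection limit, at 0 to 1.88 CPM.

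Per length of exon, RBPJ had the highest level of the 4 genes in each library, 9.57 to 12.3 RPKM with ERG and 8.66 to 12.7 RPKM with vector. RPKM here is TMM-scaled CPM per kilobase of all annotated exons, a length that is greatest for NOTCH2 (16807 bases) and lowers its value. JAG1 was lowest of the 4 in each ERG library, at 2.47 to 3.41 RPKM, and in vector replicates 2 and 3. In vector replicate 1, NOTCH1 was lower (0.857 against 1.18 RPKM). Of the tested Jagged and Delta-like ligands JAG1 had the highest level in each library: JAG2 was at 0.0459 to 0.355 RPKM and DLL1 at 0.0910 to 0.468 RPKM over the 6 libraries.

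The order of the receptors varied among the libraries, also within each group. NOTCH1 was picked with its difference known, so its rank and its ratio to NOTCH3 are a description and support nothing. NOTCH1 stood at 4.46, 4.43 and 3.87 RPKM in the ERG libraries and was the highest receptor in ERG replicates 1 and 2. In the vector libraries it stood at 0.857, 1.46 and 2.40 RPKM and was the lowest receptor in all 3. NOTCH3, a receptor outside the 4 genes, was lowest in each ERG library, with 1.63, 1.72 and 2.65 RPKM with ERG against 2.79, 6.82 and 5.38 RPKM with vector. NOTCH2 was the highest receptor in ERG replicate 3 (5.78 RPKM) and in vector replicates 1 and 3, and NOTCH3 in vector replicate 2. The ratio of NOTCH1 to NOTCH3 counts within a library does not depend on scaling. It was 3.02, 2.86 and 1.61 in the ERG libraries and 0.339, 0.237 and 0.493 in the vector libraries, above 1 in every ERG library and below 1 in every vector library. Mean NOTCH2, at 4.48 ± 1.15 RPKM with ERG, did not differ from mean NOTCH1 (4.26 ± 0.332) beyond their spread, nor with vector from mean NOTCH3 (4.09 ± 2.17 against 4.998 ± 2.04).

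**Figure D2:**
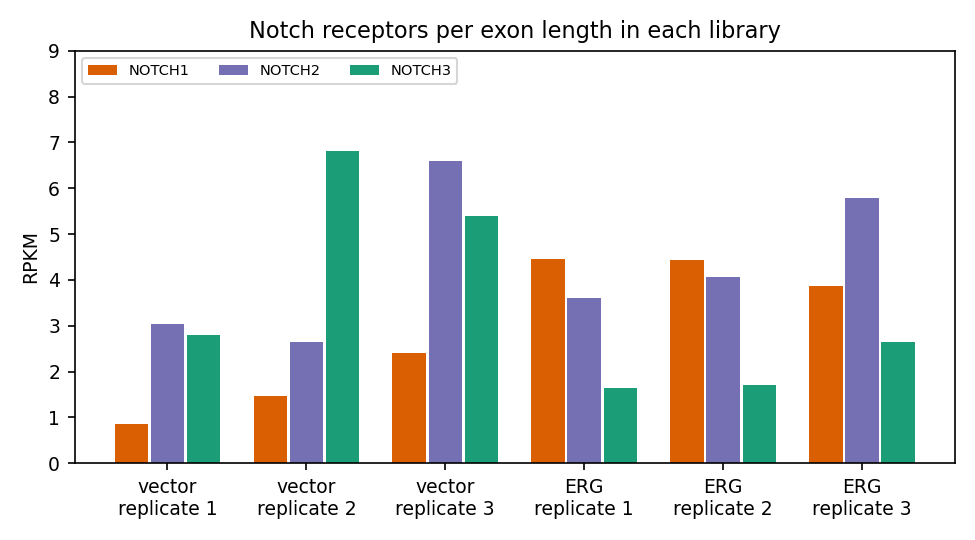
RPKM (vertical axis, from 0) of NOTCH1, NOTCH2 and NOTCH3 in each of the 6 libraries, one bar per gene without error bars. NOTCH1 is the lowest bar in all 3 vector libraries, and NOTCH3 the lowest in all 3 ERG libraries.

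The other genes of the pathway were taken from a list of 92 in 10 roles. Of these, 70 were in the table and 68 had enough counts to be tested. With ERG 3 of the 68 rose, against 1.47% of all genes, and 0 fell, against 0.732% of all genes (edgeR adjusted p under 0.05). At an unadjusted p under 0.05 there were 16 of the 68, against 2260 of all 14203 tested genes. DESeq2 called 7 (7.08% of all genes) and limma-voom 1 (1.89%). The median log2 difference was 0.10 in the list and -0.01 over all tested genes. The 3 that rose were LFNG and GXYLT1, of 9 tested genes of receptor maturation and glycosylation, and MAML3, of 7 tested coactivators. None of the 3 passed with ERG replicates 1 and 2 summed, or without ERG replicate 1, ERG replicate 2, vector replicate 2 or vector replicate 3.

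**Figure D3:**
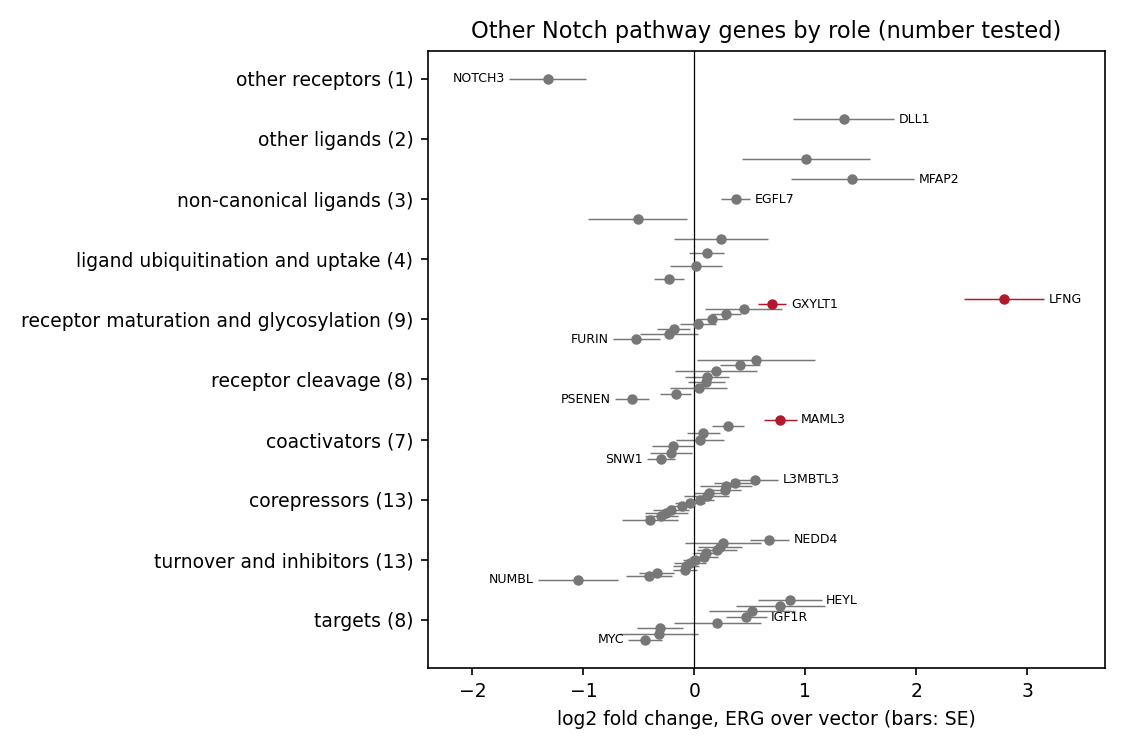
Log2 fold change of ERG over vector (horizontal axis, bars: SE) of the 68 tested pathway genes, grouped by role on the vertical axis. Genes past the edgeR threshold (LFNG, GXYLT1 and MAML3) are red, and names are given where the unadjusted p was under 0.05; most genes lie close to 0.

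LFNG encodes lunatic fringe, a glycosyltransferase that extends sugars on Notch receptors and shifts their preference between Delta-like and Jagged ligands; it lies on chromosome 7 from 2512529 to 2529177. It was at 9.31, 9.53 and 5.36 CPM with ERG and 1.496, 0.990 and 0.978 CPM with vector. Every ERG library was well above the vector libraries, with ERG replicate 3 lowest. LFNG rose 6.93-fold (log2 2.79, SE 0.36, edgeR adjusted p = 0.0177). These values rest on 79 to 139 counts per ERG library and 10 to 17 per vector library, so the vector level was near the detection limit. Among the processing alternatives its adjusted p ranged from 1.3e-08 to 0.107.

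GXYLT1, a xylosyltransferase that extends glucose on Notch repeats, stood at 61.6, 58.1 and 51.7 CPM with ERG and at 34.6, 37.2 and 33.8 CPM with vector. It rose 1.62-fold (log2 0.70, SE 0.13, edgeR adjusted p = 0.0426; 5.2e-04 to 0.24 among the alternatives). MAML3, a Mastermind-like coactivator of the Notch and RBPJ complex, stood at 75.1, 80.8 and 62.5 CPM with ERG and at 41.3, 47.0 and 39.2 CPM with vector. It rose 1.71-fold (log2 0.78, SE 0.15, edgeR adjusted p = 0.047; 9.3e-04 to 0.235 among the alternatives). For both genes the lowest ERG library was above the highest vector library, but the adjusted p lay close to the threshold. GXYLT1 did not pass without vector replicate 1 (0.0571) or in limma-voom (0.0506), and MAML3 not with RLE size factors (0.0507), in limma-voom (0.0554) or without vector replicate 1 (0.0684).

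Among receptors and ligands, 0 of 6 tested genes passed. NOTCH3 was at 15.3, 16.1 and 24.9 CPM with ERG and at 26.2, 64.1 and 50.6 CPM with vector (log2 difference -1.32, SE 0.35, edgeR adjusted p = 0.11). The ERG libraries were all below the vector libraries, though ERG replicate 3 and vector replicate 1 nearly touched. NOTCH3 passed as lower in 4 of 15 alternatives: in DESeq2 (0.00592), with replicate number as a block (0.0165), with a term for the library sets (0.00296) and without vector replicate 1 (0.0299). The Delta-like ligand DLL1 (1.33 ± 0.177 against 0.514 ± 0.254 CPM, adjusted p = 0.206) and the Jagged ligand JAG2 (1.62 ± 0.659 against 0.792 ± 0.514 CPM, adjusted p = 0.447) were near the detection limit. EGFL7, a secreted protein that can bind Notch receptors, was at 360 ± 16.3 against 278 ± 21.2 CPM (log2 0.37, edgeR adjusted p = 0.228; 0.0253 with the library set term). MFAP2, a microfibril protein that can bind Jagged-1, was at 6.77 ± 1.93 against 2.48 ± 1.72 CPM (edgeR adjusted p = 0.271; 0.0393 with the replicate block).

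In the ligand uptake, maturation and cleavage lists, no gene besides LFNG and GXYLT1 passed. EPN1, an endocytic adaptor, was at 267 ± 29.8 against 312 ± 10.5 CPM, and MIB1, the ubiquitin ligase of Notch ligands, at 184 ± 26.3 against 170 ± 19.2 CPM (edgeR adjusted p = 0.471 and 0.763). FURIN, the convertase that makes the first cut in the receptor, was at 215 ± 45.8 against 308 ± 52.9 CPM (0.285). The fringe gene MFNG was far more abundant than LFNG, 208 ± 8.98 against 171 ± 20.05 CPM (0.373), and per length it stood at 68.4 against 2.36 RPKM of LFNG in the ERG libraries. The protease gene ADAM10 was at 176 ± 29.4 against 132 ± 19.3 CPM (0.321). Of the gamma-secretase subunits, APH1A was at 141 ± 17.3 against 158 ± 10.01 CPM (0.593) and PSENEN at 21.9 ± 2.98 against 32.4 ± 0.726 CPM (0.119). FURIN passed as lower with the library set term (0.00776), and PSENEN with that term (0.0225) and in DESeq2 (0.0199).

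Of the other nuclear cofactors none passed. The acetyltransferase CREBBP was at 206 ± 20.9 against 166 ± 17.1 CPM and the coactivator SNW1 at 125 ± 4.60 against 153 ± 14.4 CPM (edgeR adjusted p = 0.357 and 0.313). Among corepressors CTBP1 was at 212 ± 6.91 against 229 ± 4.87 CPM (0.679), and L3MBTL3, which can bind RBPJ, at 17.5 ± 3.94 against 11.99 ± 0.98 CPM (0.271). Of the genes of Notch turnover, the ubiquitin ligase ITCH was at 88.8 ± 2.49 against 83.6 ± 7.79 CPM and CCNC, a cyclin of the kinase module that marks the intracellular part for destruction, at 81.8 ± 1.86 against 86.6 ± 1.88 CPM (0.762 and 0.746). NEDD4, another ubiquitin ligase, was at 44.1 ± 7.30 against 27.6 ± 3.53 CPM (0.11), and NUMBL, a relative of the Notch inhibitor Numb, at 16.6 ± 7.16 against 34.3 ± 11.7 CPM (0.215). NEDD4 passed as higher in DESeq2 (0.0308), with the replicate block (0.0461) and with the library set term (0.00959). NUMBL passed as lower with the block (0.0364) and the set term (0.00374), and SNW1 with the set term (0.0252).

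None of the 8 tested target genes passed, and their signs were mixed, 5 positive and 3 negative. MYC, a direct target in T cell leukaemia, was at 683 ± 17.5 against 927 ± 98.3 CPM (log2 -0.44, edgeR adjusted p = 0.211), with all ERG libraries below all vector libraries. TRIB2 was at 115 ± 28.0 against 142 ± 24.8 CPM (0.515), IGF1R at 55.5 ± 3.95 against 40.2 ± 8.83 CPM (0.276) and HEYL, a HES-related repressor, at 3.24 ± 0.347 against 1.78 ± 0.121 CPM (0.195). MYC passed as lower in DESeq2 (0.0198) and with the library set term (0.0175). HES1 and NRARP, the classic direct targets, were chosen after their values were seen. HES1 was at 88.7, 89.8 and 51.1 CPM with ERG and 109.5, 47.9 and 41.2 CPM with vector (log2 0.21, adjusted p = 0.821). Its 3 high libraries were those of set A, in both groups. NRARP was at 17.4, 19.3 and 37.5 CPM against 21.0, 41.8 and 29.7 CPM (log2 -0.32, adjusted p = 0.698), and its 3 low libraries were those of set A.

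The 4 genes did not vary together as a block over the 6 libraries. On log2 CPM, Pearson's r was 0.89 between JAG1 and NOTCH1 and 0.77 between NOTCH2 and RBPJ, and it was 0.20 for JAG1 with NOTCH2 and -0.10 for JAG1 with RBPJ. These are descriptions over 6 points that share the group difference and the library sets. Of 9190 other genes at a mean of at least 10 CPM, those with the pattern most like JAG1 were FAR2, PRICKLE1, ZNF792, CACNA2D1 and CALCRL (r = 0.992 to 0.996). CALCRL, a peptide hormone receptor known from endothelium, was at 51.0, 45.5 and 35.7 CPM with ERG and 15.5, 16.0 and 14.5 CPM with vector. Most like NOTCH1 were TROAP, RESF1 and ZMYM2 (r = 0.993 to 0.997). For NOTCH2 they were AMOTL1, ZZZ3 and UBR1 (0.973 to 0.994), of which AMOTL1 alone had a comparable range, from 16.5 CPM in vector replicate 2 to 61.7 CPM in vector replicate 3. For RBPJ they were NOL8, INTS1 and ZNF765 (0.995 to 0.998).

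The nearest measured genes of JAG1 and NOTCH1 did not pass. SLX4IP, 0.855 kb beyond the end of JAG1, was at 12.03 against 8.14 CPM, with a log2 difference of 0.57 (edgeR adjusted p = 0.277), and SEC16A, 10.7 kb from NOTCH1, at 177 against 164 CPM with a log2 difference of 0.11 (adjusted p = 0.717). EGFL7, given above, is also a neighbour of NOTCH1, 113 kb away and on the opposite strand.

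Markers of other cell types in which Notch genes are active are given beside these results, and their part in them was not tested. Of 10 megakaryocyte markers, 8 were measured and 5 rose, against 1.47% of all tested genes. The sum of the 8 was 1329 to 2484 CPM with ERG and 547 to 1176 CPM with vector. Most of that sum was ITGA2B (mean 1496 against 762 CPM), which overlapped between the groups and did not pass (edgeR adjusted p = 0.209). Of 8 endothelial markers, 3 were measured, with a sum of 112 to 198 CPM with ERG and 65.5 to 126 CPM with vector. They were ESAM, TEK and CDH5, and CDH5, the defining endothelial cadherin, was at 0.407 to 1.78 CPM with ERG and 0 to 0.088 CPM with vector. CDH5 had too few counts to be tested. TEK passed as higher (log2 0.97, edgeR adjusted p = 0.0496), 1 of the 2 tested, against 1.47% of all tested genes. Most of the endothelial sum was ESAM (mean 105 against 58.2 CPM), which overlapped between the groups and did not pass (edgeR adjusted p = 0.348). Of 7 stromal markers only COL1A1 was measured (2.04 to 8.71 CPM), and of 7 T cell markers only CD2 (0.294 to 1.45 CPM); neither passed.

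**Figure D4:**
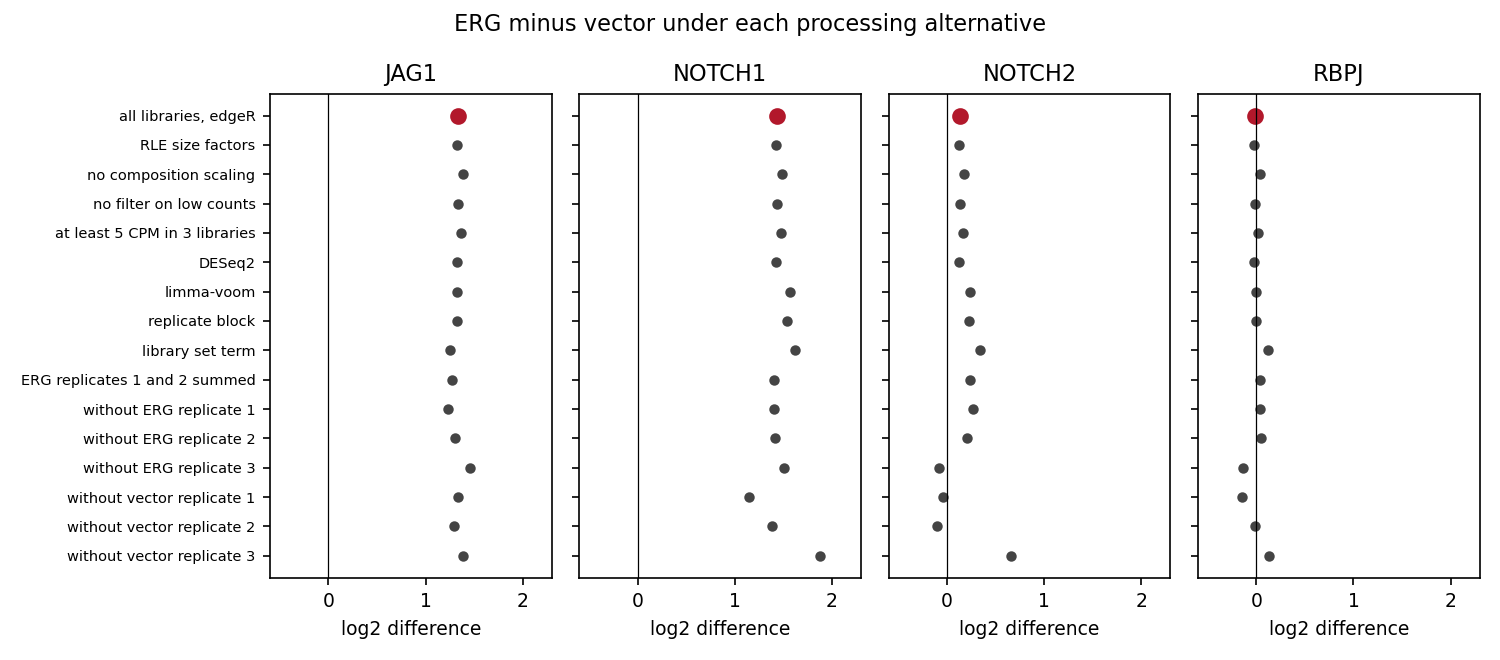
Log2 difference of ERG minus vector (horizontal axis, same range in each panel) of JAG1, NOTCH1, NOTCH2 and RBPJ with all libraries in edgeR (red) and under 15 processing alternatives (grey, vertical axis). JAG1 ranges from 1.23 to 1.46 and NOTCH1 from 1.14 to 1.88, while NOTCH2 and RBPJ lie on both sides of 0.

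Over the 15 alternatives the log2 difference of JAG1 kept its sign in 15, from 1.23 to 1.46, and that of NOTCH1 in 15, from 1.14 to 1.88. For both genes every ERG library lay above every vector library, so the sign could hardly change, and its keeping supports nothing. NOTCH2 kept its sign in 12 of 15, from -0.10 to 0.66, and RBPJ in 8 of 15, from -0.14 to 0.13. The sign of RBPJ also changed between TMM and no composition scaling (-0.01 and 0.03).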

How the data were processed

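Polyadenylated RNA of 6 F36P libraries was captured on oligo-dT beads and primed with random hexamers, per the labels' protocols. The deposited table holds whole-number read counts per gene made by the authors, although its name speaks of CPM. The lowest second-highest CPM of any gene was 1.01, so rare genes had been removed before deposit. The submitters' processing notes name hg38 as the build and edgeR 3.32.1; the aligner, the annotation and strand are not given in the sources used here. The control columns bear no vector name and were taken as the vector group, the only one besides ERG; 0 columns were left unused.

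Here, edgeR 4.0.16 (R 4.3.3) with TMM and its two-sided quasi-likelihood test was fitted to the 14203 genes that reached 1 CPM in 3 or more libraries, with Benjamini-Hochberg adjustment over all of them and a threshold of 0.05. SE is the log2 fold change divided by the square root of F. The fit was also run on simulated independent libraries. These had no library sets and no near-alike replicates, so that run cannot show how such features affect the p-values. Log2 CPM used a prior count of 2. Alternatives were DESeq2 1.42.0, limma 3.58.1 voom, other scalings and filters, a replicate block, a set term, ERG replicates 1 and 2 summed and each library left out; the last 2 kinds kept the same tested genes. The genes and lists were chosen with earlier results of these data known. Pathway genes were named when past the threshold or at an unadjusted p under 0.05, with the 2 most abundant per role; the 5 (JAG1) or 3 genes most like each gene were named by Pearson's r. Exon lengths and positions are from GENCODE release 29 and promoter sequences from RefSeq (GRCh38.p14), where all 4 genes matched. List genes outside the table were not analysed here. One gene that the naming rule selects is not reported here.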

Additional observations from a re-analysis of the deposited data

How the results depend on the processing

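The number of called genes depended strongly on the libraries and the model, and the cause was not tested. Over all genes edgeR called 313 with all libraries, DESeq2 1006, edgeR with the library set term 1869 and, with ERG replicates 1 and 2 summed, 0 (1277 at an unadjusted p under 0.05). Among the 68 other pathway genes the 3 calls became 7 in DESeq2 (4 higher, 3 lower), 1 in limma-voom, 12 with the set term (5 higher, 7 lower; 13.2% of all genes passed there) and 0 with the sum (8 at an unadjusted p under 0.05). With one library left out, edgeR called 0 to 441 genes, and 0 to 3 of the pathway genes. Without ERG replicate 1 or 2 it called 0 genes (1278 and 1256 before adjustment, p under 0.05) and without vector replicate 2 or 3 it called 19 and 51, and in these 4 cases 0 pathway genes and none of JAG1, NOTCH1, NOTCH2 and RBPJ. Since the sets were defined on these libraries and ERG replicates 1 and 2 are so alike, p-values with the set term may be too low. The likeness of ERG replicates 1 and 2 bears on every fit that counts them as separate libraries. The p-values of the main edgeR fit, DESeq2, limma-voom and the replicate block may therefore be too low as well.

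With the replicate number as a block edgeR called 905 genes and 7 pathway genes (5 higher, 2 lower). Same-numbered libraries did not all deviate together (r = 0.63, -0.28 and 0.59 for replicates 1, 2 and 3), so the number does not pair them, and not every library correlated best with its own number.

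The log2 differences of JAG1, NOTCH1, NOTCH2 and RBPJ moved by less than the pooled SD between replicates in each of the 15 alternatives. With 3 replicates, leaving out 1 library can hardly move a group mean that far, so for those fits this supports nothing. NOTCH2 moved from 0.14 to 0.66 without vector replicate 3, against an SD of 0.56. The 16 other pathway genes at an unadjusted p under 0.05 kept their sign in each alternative that gave them a value. They were picked by their p in this contrast, so their sign could hardly change, and its keeping supports nothing. Genes near 1 CPM, such as JAG2 and DLL1, are limited by depth.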
